A study of Homo sapiens with 15 samples.

Results

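NRCAM, CACNA1D, CACNA2D3 and EFNA5 are 4 of the 758 genes on a fixed expression panel measured in JIMT-1, an established human HER2-positive breast cancer cell line. They were chosen by name for having roles in neuronal adhesion and calcium entry and for how they had behaved in these same libraries, so their levels and differences are given as a description, with no test. The 15 libraries form 4 groups, and all came from JIMT-1 cells grown in DMEM with 10% serum. The HSL119 group (n = 3) received HSL119, a compound known here by its code name, at 1 ug/ul as the labels give it. KD1 and KD2 (n = 4 each) are lines carrying shRNA against the kinase HUNK, kept in puromycin at 1 ug/ul. CTL (n = 4) is the reference. What CTL cells were given in place of the compound, the shRNA or the puromycin is not stated, so effects of the shRNA and of puromycin cannot be told apart. HUNK itself was not analysed here, so the depth of the knockdown is not given. Neither the length of treatment nor the origin of a group's libraries in separate cultures is stated, so the spread shown may be technical.

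NRCAM encodes a cell adhesion molecule of the L1 family. It spans the membrane, binds partners on neighbouring cells and anchors to the ankyrin skeleton, and it is best known from axon outgrowth and from the nodes of Ranvier. CACNA1D encodes the pore-forming subunit of an L-type voltage-gated calcium channel, which opens on depolarization and serves pacemaking and secretion in neurons, heart and endocrine cells. CACNA2D3 encodes an auxiliary subunit that sits on the outer face of such channels and helps bring the pore to the membrane. EFNA5 encodes an ephrin, a lipid-anchored surface ligand that meets EphA receptors on touching cells and signals into both, and it is known as a repulsive cue for growing axons.

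The panel's probe sequences were not used here. The promoters of the 4 genes are shown, and whether they bear on the levels was not tested. Each is the 300 bases from 250 before to 50 after a start site in the RefSeq table of GRCh38.p14, in which all 4 symbols matched. Capitals mark GGGCGG (the GC box), TGANTCA (AP-1), TGACGTCA (the cyclic AMP response element) or TATAAA (the TATA box), on either strand.
CACNA1D, chr3:53494361-53494660, plus strand: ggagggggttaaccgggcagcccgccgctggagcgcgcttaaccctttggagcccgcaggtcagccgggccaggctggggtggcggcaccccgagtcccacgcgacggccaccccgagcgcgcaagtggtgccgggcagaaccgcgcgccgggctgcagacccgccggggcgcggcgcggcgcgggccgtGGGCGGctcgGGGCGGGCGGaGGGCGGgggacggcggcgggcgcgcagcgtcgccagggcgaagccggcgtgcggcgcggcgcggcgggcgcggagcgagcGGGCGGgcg
EFNA5, chr5:107670888-107671187, minus strand: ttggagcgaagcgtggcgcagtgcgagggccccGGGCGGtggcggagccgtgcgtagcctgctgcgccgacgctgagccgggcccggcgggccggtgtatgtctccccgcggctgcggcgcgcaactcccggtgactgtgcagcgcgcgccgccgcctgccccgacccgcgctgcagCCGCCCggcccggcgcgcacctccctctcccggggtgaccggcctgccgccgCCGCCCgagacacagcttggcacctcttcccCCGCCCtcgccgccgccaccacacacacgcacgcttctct
CACNA2D3, chr3:54122302-54122601, plus strand: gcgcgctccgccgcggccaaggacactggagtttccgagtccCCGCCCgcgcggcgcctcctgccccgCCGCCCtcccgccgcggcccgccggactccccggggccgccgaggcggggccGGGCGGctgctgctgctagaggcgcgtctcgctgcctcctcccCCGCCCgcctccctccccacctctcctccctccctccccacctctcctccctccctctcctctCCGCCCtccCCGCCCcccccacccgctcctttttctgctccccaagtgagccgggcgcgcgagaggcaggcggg
NRCAM, start 1, chr7:108456387-108456686, minus strand: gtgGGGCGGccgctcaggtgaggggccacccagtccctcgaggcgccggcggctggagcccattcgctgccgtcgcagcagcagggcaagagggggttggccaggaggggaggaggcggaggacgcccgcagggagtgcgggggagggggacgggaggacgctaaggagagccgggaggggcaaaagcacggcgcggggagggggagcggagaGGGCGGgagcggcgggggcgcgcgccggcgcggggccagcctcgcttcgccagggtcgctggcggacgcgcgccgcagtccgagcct
NRCAM, start 3, chr7:108243336-108243635, minus strand: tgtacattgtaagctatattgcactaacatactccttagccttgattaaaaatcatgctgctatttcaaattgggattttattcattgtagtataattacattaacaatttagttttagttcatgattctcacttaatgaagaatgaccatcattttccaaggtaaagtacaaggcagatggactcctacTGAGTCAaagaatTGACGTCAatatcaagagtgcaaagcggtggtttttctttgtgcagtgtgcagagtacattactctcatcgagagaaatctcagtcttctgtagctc

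The 4 genes each have a start in a promoter rich in G and C, with a GC content of 83% for CACNA1D, 79% for CACNA2D3 and 78% for both EFNA5 and NRCAM start 1. The median over 35116 promoters of the table was 58.7% and the 90th percentile 74.7%. The GC box occurred 5 times in the CACNA1D promoter, where a pair of matches overlap, 6 times in CACNA2D3, 4 times in EFNA5 and 2 times at NRCAM start 1, against 45% of all promoters with at least 1 match. CACNA2D3 held the most matches of the 4. None of these 4 promoters held the AP-1, cyclic AMP or TATA letters. NRCAM start 3 held 1 AP-1 match and 1 cyclic AMP match, which 7.71% and 1.85% of all promoters have, and its GC content was 35%. NRCAM start 2, which is not shown, held none of the capitalized motifs. The E-box CANNTG was found at every NRCAM start and in CACNA1D and CACNA2D3 but not in EFNA5, and in 68.7% of all promoters. The panel does not tell which start of NRCAM its counts came from.

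Levels are given below as scaled counts, which are the authors' linear normalized counts divided by a factor per library from the median of ratios over 622 genes. Those 622 exceeded a deposited linear value of 20 in at least 3 libraries, and all 4 genes were among them. Differences are log2 differences of the deposited log2 values, with the standard error (SE) of a limma fit of all 15 libraries. The typical gene lay above CTL on that scale, by a median of 0.41 in HSL119, 0.43 in KD1 and 0.41 in KD2. This median was subtracted, and every difference below is relative to it. These medians include a constant per library that separates the deposited log2 values from log2 of the linear values. It was -0.18 to -0.13 in CTL, 0.16 to 0.19 in HSL119 and negligible in both lines. On log2 of the linear value plus 1, the medians were 0.08, 0.27 and 0.26. Whole counts recovered from the linear values totalled 1241234 to 1457370 in each CTL library and 1442964 to 1561639 in each knockdown library. These depths limit the precision of low values, and none are given for HSL119. Within CTL and KD1, the counts of library 1 and library 2, and those of library 3 and library 4, were nearly the same (chi-square over its degrees of freedom 1.13 to 1.45). In KD2 this ratio was 1.34 for libraries 1 and 2, while 3 and 4 differed more. Each group of 4 may therefore hold fewer than 4 independent samples, and the SE with these pairs averaged is given beside the main differences. HSL119 replicate 2 stood apart near background, with 619 panel genes over 20 against 523 to 567 in the other 14 libraries.

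**Figure D1:**
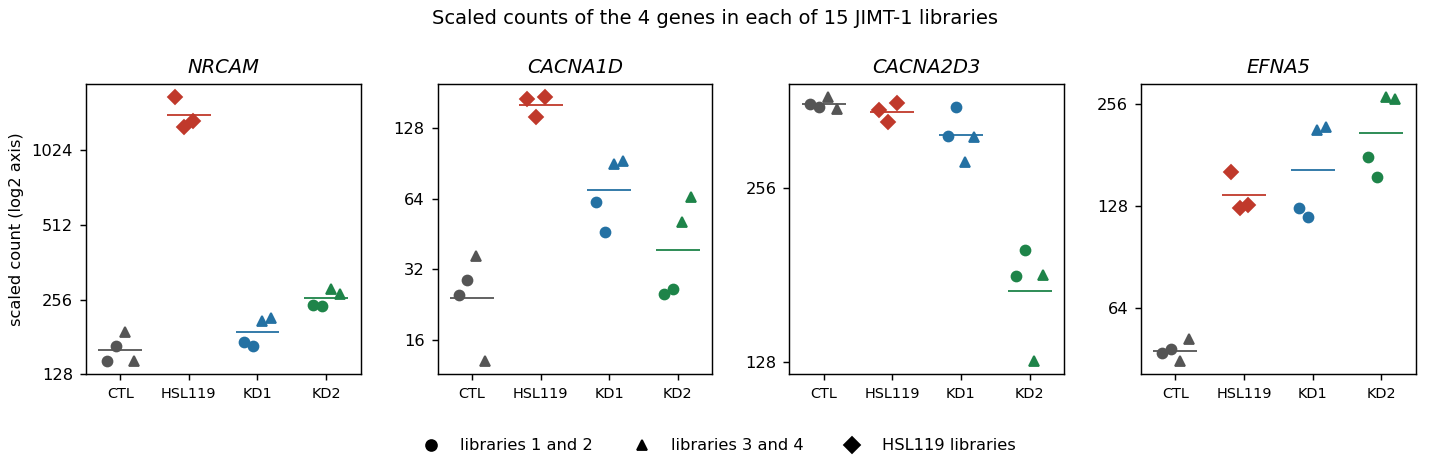
Scaled counts (vertical axis, log2 scale, a range of its own per gene) of NRCAM, CACNA1D, CACNA2D3 and EFNA5 in each library of CTL, HSL119, KD1 and KD2. Circles are libraries 1 and 2, triangles libraries 3 and 4, diamonds HSL119 libraries, and bars geometric means. NRCAM lies at 1274 to 1669.5 in HSL119 and at most at 283 elsewhere, CACNA2D3 is low in KD2, and CACNA1D and EFNA5 are higher in libraries 3 and 4 of the knockdown lines.

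NRCAM was the adhesion gene of the 4 and stood highest in HSL119. Its scaled count was 1669.5, 1274 and 1343 in HSL119 replicates 1 to 3, against 145, 167, 189.6 and 144 in CTL replicates 1 to 4. Every HSL119 library thus lay far above the highest CTL library. In KD1 it was 173, 166, 210.3 and 215, and in KD2 244, 242, 283 and 269. KD1 overlapped CTL, while all KD2 libraries lay above both. The order was therefore HSL119, KD2, then KD1 and CTL, of which the last 2 did not differ beyond their spread.

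Relative to the median gene, NRCAM was higher in HSL119 by 3.09 (SE 0.15), or 8.54-fold, which ranked 5 of 622. After averaging libraries 1 and 2, and 3 and 4, the SE was 0.18. In KD2 it was higher by 0.70 (SE 0.14, or 0.19 with pairs averaged), or 1.62-fold, and in KD1 by 0.23 (SE 0.14, or 0.19). HSL119 exceeded the mean of both lines by 2.69, with a 95% interval of 2.40 to 2.99. Across the 5 scalings the HSL119 difference stayed between 3.07 and 3.09, and that of KD2 between 0.52 and 0.70. The deposited, centred and median of ratios values had to be equal here. Subtracting the median of all genes cancels any constant per library.

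CACNA1D, the channel pore, was low in CTL and high in HSL119. It measured 170.2, 142 and 173 in HSL119, against 24.8, 28.8, 36.3 and 12.9 in CTL. CTL replicate 4 was the lowest library, with a deposited linear value of 11.8 that lies under the floor of 20. KD1 held 61.8, 46.3, 89.8 and 93.0, and KD2 25.2, 26.4, 51.0 and 65.3. HSL119 lay above all other libraries and KD1 above all of CTL, while KD2 overlapped both KD1 and CTL. In KD2, libraries 1 and 2 were within the CTL range and libraries 3 and 4 above it.

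The difference of CACNA1D from CTL was 2.69 (SE 0.41), or 6.47-fold, in HSL119 and 1.53 (SE 0.38), or 2.88-fold, in KD1. In KD2 it was 0.69 (SE 0.38), an interval that reached from -0.13 to 1.51. With pairs averaged, the SE was 0.39 in HSL119 and 0.43 in both lines. Leaving out CTL replicate 4 gave 2.40, 1.22 and 0.38 in HSL119, KD1 and KD2. HSL119 exceeded the mean of the lines by 1.65 (95% interval 0.87 to 2.44).

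CACNA2D3, the auxiliary subunit, was the 1 gene of the 4 that was lower, and this was so in KD2. It measured 180.2, 200.1, 128 and 181 in KD2, against 357, 353, 366 and 350.3 in CTL. All KD2 libraries lay under every other library, and KD2 replicate 3 was the lowest. HSL119 held 349, 332 and 358, and KD1 315, 353, 283 and 313. Both overlapped CTL, so CTL, HSL119 and KD1 did not differ beyond their spread between neighbours in that order.

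CACNA2D3 differed from CTL in KD2 by -1.06 (SE 0.10), which is 2.09-fold lower, and in KD1 by -0.19 (SE 0.10). In HSL119 the difference was -0.10 (SE 0.11), with an interval from -0.34 to 0.15. These last 2 took the opposite sign on the deposited scale before the median was subtracted, at 0.24 for KD1 and 0.31 for HSL119. Subtraction left the sign of KD2 as it was (-0.65 before it). With pairs averaged, the SE was 0.13 in KD2, 0.13 in KD1 and 0.12 in HSL119.

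EFNA5, the ephrin ligand, was higher than CTL in all 3 other groups. It measured 46.9, 48.3, 44.5 and 51.7 in CTL, a narrow range. HSL119 held 161, 127 and 129, KD1 127, 119, 215 and 219, and KD2 179, 156, 268 and 265. No library of the 3 groups reached down to CTL, while HSL119 overlapped KD1 and KD1 overlapped KD2. HSL119 replicate 1, at 161, also lay above KD2 replicate 2, so the 3 groups could not be ordered beyond their spread.

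EFNA5 was higher than CTL by 2.15 (SE 0.25), or 4.44-fold, in KD2 and by 1.76 (SE 0.25), or 3.39-fold, in KD1. In HSL119 it was higher by 1.48 (SE 0.27), or 2.79-fold. With pairs averaged, the SE was 0.35 for both lines and 0.32 for HSL119. The difference of HSL119 from the mean of the lines was -0.41 (95% interval -0.92 to 0.10), and quantile normalization turned it to 0.10. These comparisons with CTL share the CTL libraries, so the values of the groups are not independent of each other.

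On scaled counts, the HSL119 libraries did not overlap CTL and were higher in 3 of the 4 genes, where 37.5% of the 622 genes were. The same held in KD1 for CACNA1D and EFNA5, beside 25.1% of all genes, and in KD2 for NRCAM and EFNA5, beside 28.1%. KD2 lay wholly below CTL in CACNA2D3 alone, beside 25.2% of all genes. In the other direction, 37.5% of genes lay wholly below CTL in HSL119 and 26% in KD1, and none of the 4 did. Without the scaling, on the deposited log2 values, CACNA2D3 in HSL119 and both CACNA2D3 and NRCAM in KD1 also lay wholly above CTL. There 50.6% of all genes did so in HSL119, 56.3% in KD1 and 52.4% in KD2. Those values hold the constant per library, which differed between groups. HSL119 lay wholly above both lines in NRCAM and CACNA1D, as in 28.3% of all genes, and below them in none of the 4, as in 28.9%. The genes were picked with these differences known, so nothing is read from the counts.

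**Figure D2:**
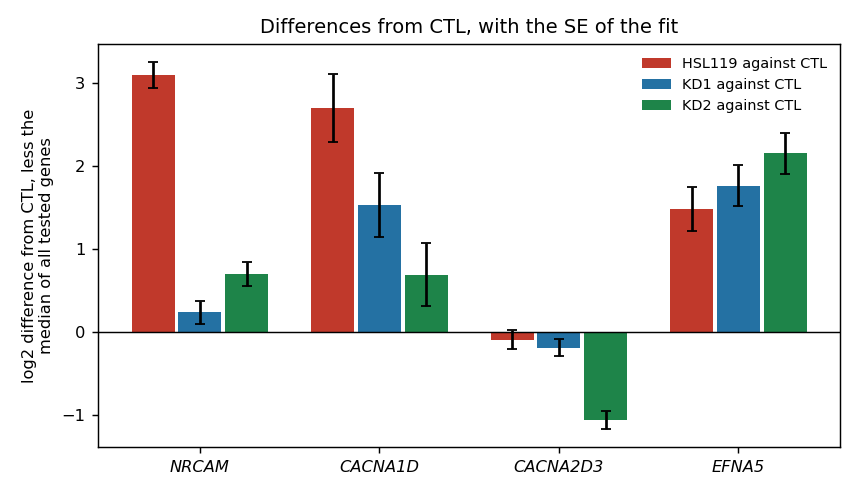
Log2 difference of HSL119, KD1 and KD2 from CTL (vertical axis) for each gene, less the median of the 622 tested genes; bars are estimates and whiskers the SE of the limma fit. NRCAM and CACNA1D are highest in HSL119 (3.09 and 2.69), EFNA5 is highest in KD2 (2.15), and CACNA2D3 stands well below 0 only in KD2 (-1.06); its HSL119 and KD1 bars are above 0 without the subtraction.

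The 2 shRNA lines differed from each other in the same direction at every library number for all 4 genes. CACNA2D3 was higher in KD1 than in KD2 by 0.80, 0.82, 1.14 and 0.79 in libraries 1 to 4 on the scaled log2 counts. CACNA1D was higher in KD1 by 1.30, 0.81, 0.82 and 0.51. NRCAM was higher in KD2, by 0.49, 0.54, 0.43 and 0.32, and EFNA5 by 0.50, 0.40, 0.32 and 0.27. Both channel genes thus stood higher in KD1, and the adhesion molecule and the ephrin in KD2.

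In the fit without the library number, KD1 less KD2 was 0.89 (95% interval 0.67 to 1.12) for CACNA2D3 and 0.86 (0.04 to 1.68) for CACNA1D, which ranked 4 and 5 of 622. It was -0.44 (-0.75 to -0.14) for NRCAM and -0.37 (-0.90 to 0.16) for EFNA5. With libraries 1 and 2, and 3 and 4, averaged first, the interval was -0.14 to 1.86 for CACNA1D and -0.89 to 0.0073 for NRCAM. It was -1.17 to 0.44 for EFNA5 and 0.59 to 1.19 for CACNA2D3. The genes were picked with these values known, so the intervals describe spread and test nothing. With the library number as a block the SE went from 0.25 to 0.20 for EFNA5 and stayed at 0.10 for CACNA2D3. The lines' libraries did not overlap for CACNA2D3, where KD1 was higher as in 5.95% of all genes, nor for NRCAM, where KD1 was lower as in 6.27%. For CACNA1D and EFNA5 they overlapped.

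**Figure D3:**
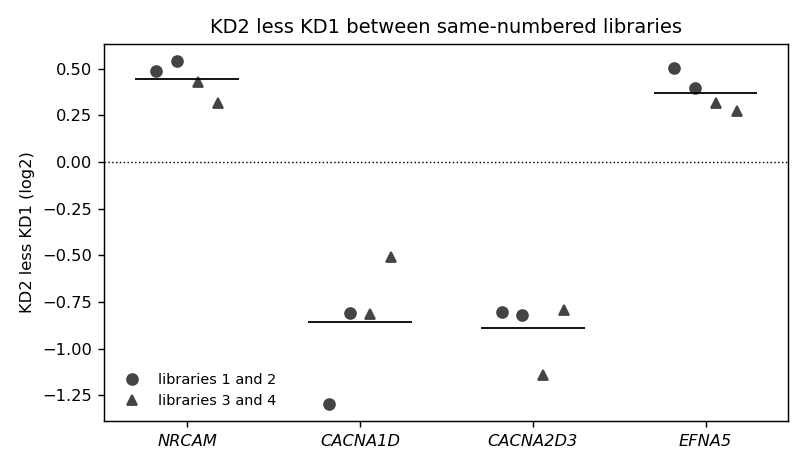
KD2 less KD1 in log2 scaled counts (vertical axis) between libraries of the same number, with circles for libraries 1 and 2, triangles for 3 and 4, and a bar at the mean. The 4 points of each gene lie on 1 side of 0, above it for NRCAM and EFNA5 and below it for CACNA1D and CACNA2D3.

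Within the knockdown lines, libraries 3 and 4 stood apart from 1 and 2 in part of the genes. For EFNA5, libraries 3 and 4 exceeded 1 and 2 by 0.82 in KD1 and 0.67 in KD2, where CTL moved by 0.01. CACNA1D was higher in libraries 3 and 4 by 0.77 and 1.16 in the lines, where CTL moved by -0.30. NRCAM was higher by 0.33 and 0.19, and CACNA2D3 lower, at -0.16 and -0.32. Over all 622 genes the median absolute shift was 0.08 in CTL, 0.31 for KD1 and 0.35 for KD2. A shift at least as large as that of CACNA1D was seen in 13.7% of genes in KD1 and 6.75% in KD2, and one as large as that of EFNA5 in 12.4% and 23.3%.

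The contrast with CTL was therefore also taken within each pair of library numbers. For EFNA5 it was 1.37 and 2.17 in KD1, and 1.80 and 2.49 in KD2, for libraries 1 and 2 and for 3 and 4. EFNA5 was higher than CTL in both pairs of both lines. For CACNA1D it was 1.00 and 2.07 in KD1, and -0.07 and 1.43 in KD2. The KD2 value of CACNA1D thus rested on libraries 3 and 4. For CACNA2D3 in KD2 it was -0.92 and -1.22, and for NRCAM in KD2 0.63 and 0.75. Same-numbered libraries of CTL and either line did not deviate alike, so the choice of CTL pair is arbitrary. For CACNA1D, CTL libraries 3 and 4 less 1 and 2 gave -0.30, which enters its values.

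Other genes of the same systems were read from lists of ephrins and Eph receptors, calcium channel subunits, calcium-dependent signalling, neural adhesion, and integrins and other adhesion molecules. The words rose and fell are kept for listed genes with a limma adjusted p under 0.05 in 1 direction on all of 5 scalings, both with every library and after averaging libraries 1 and 2, and 3 and 4. The adjusted p printed is that on the deposited log2 values. It tests the difference before the median of all genes was subtracted, with the constant per library included. The size beside the adjusted p is after subtraction. Calls too use differences without that subtraction. Over all 622 genes, 20.3% rose and 18.2% fell in HSL119, 6.91% and 1.13% in KD1, and 8.68% and 2.41% in KD2. The shares of the lines rest on 50 and 69 genes. Without HSL119 replicate 2 the KD1 count was 15, and without HSL119 replicate 3 the counts were 17 in KD1 and 45 in KD2.

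Of 2 tested genes of neural adhesion other than NRCAM, 1 rose in HSL119 and 0 fell, with a median of 1.34 over this short list against 0 over all genes. NRXN3, which encodes a presynaptic adhesion receptor, held scaled counts of 95.6, 112 and 99.5 in HSL119 against a CTL median of 23.2. It rose there by 2.08 (SE 0.22, adjusted p in limma 2.0e-07, and 5.8e-05 with pairs averaged). All its HSL119 libraries lay above every other library. Its CTL level lay near the floor of 20, at deposited linear values of 17.2 to 25.6. It did not pass in KD1 or KD2, where it stood at 0.47 (SE 0.21) and 0.24 (SE 0.21). The other gene, N-cadherin (CDH2), rose in KD2 by 0.74 (SE 0.13, adjusted p in limma 5.6e-06) and stood at 0.59 in HSL119 and 0.52 in KD1. Its call was lost without HSL119 replicate 2 and also without HSL119 replicate 3.

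Of 5 tested channel subunits besides CACNA1D and CACNA2D3, 0 rose and 1 fell in HSL119, and none passed in KD1 or KD2. Their median was -0.11 in HSL119, -0.20 in KD1 and -0.48 in KD2, against 0 over all genes. CACNG4, an auxiliary gamma subunit, held 34.6, 28.3 and 32.9 in HSL119 against 86.0 to 114 in CTL and fell by 1.69 (SE 0.27, adjusted p in limma 0.00075). CACNA2D1, of the same subunit family as CACNA2D3, stood at 0.13 in HSL119, 0.14 in KD1 and 0.18 in KD2. The pore gene CACNA1H stood at -0.11, -0.20 and -0.13. The other 2 subunits, CACNG1 and CACNG6, ranged from -0.78 to 0.01.

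The 1 other ephrin or Eph gene on the panel was EFNA3, also an ephrin-A ligand. It held 193 to 243 in CTL and 196 to 244 in HSL119, but 96.5 to 123 in KD1 and 70.9 to 134 in KD2. It fell in KD2 by 1.14 (SE 0.16, adjusted p in limma 0.00128). That call was lost without HSL119 replicate 2. In KD1 it stood at -1.05 (SE 0.16), with an adjusted p in limma of 0.00426 on the deposited values, but of 0.0644 with pairs averaged, so it did not pass. EFNA3 and EFNA5 thus stood on different sides of CTL in both lines.

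Of 8 tested genes of calcium-dependent signalling, 1 rose and 1 fell in HSL119, 0 passed in KD1, and 2 rose and 0 fell in KD2. The list median was -0.22, 0.31 and 0.33 in HSL119, KD1 and KD2. NFATC1, a transcription factor switched on by calcium through calcineurin, fell in HSL119 by 2.57 (SE 0.10, adjusted p in limma 3.3e-10), from 246 to 276 in CTL to 40.9 to 52.8. The phospholipase PLCB4, which acts upstream of calcium release, rose there by 0.91 (SE 0.12). Its paralogue PLCB1 rose in KD2 by 1.31 (SE 0.16), from 156 to 198 in CTL to 351 to 500.4. PLCE1 rose in KD2 by 1.36 (SE 0.27), from a CTL range of 11.9 to 21.1 that lies near the floor. The PLCE1 call was lost without HSL119 replicate 3.

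Among 11 integrins and other adhesion genes, 1 rose and 2 fell in HSL119 and none passed in KD1 or KD2. The integrin gene ITGB6 fell by 3.84 (SE 0.16), the hyaluronan receptor CD44 fell by 1.43 (SE 0.05), and E-cadherin (CDH1) rose by 0.61 (SE 0.05). The list median was -0.0022 in HSL119, 0.01 in KD1 and 0.14 in KD2.

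**Figure D4:**
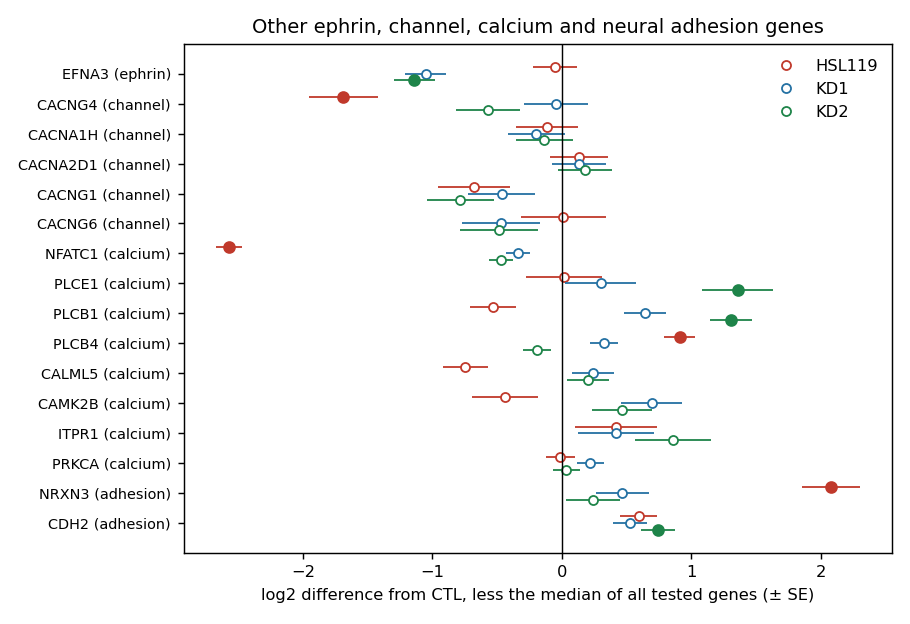
Log2 difference from CTL, less the median of 622 genes (horizontal axis, whiskers the SE), of the other tested genes in the ephrin, channel, calcium signalling and neural adhesion lists, for HSL119, KD1 and KD2. Filled points passed the call on 5 scalings and open points did not. NRXN3 stands at 2.08 in HSL119, while the channel subunits lie between -1.69 and 0.18.

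The panel genes closest in pattern to each of the 4 were found by the root mean square difference in log2 scaled count over the 15 libraries, after subtracting each gene's CTL mean. The libraries form groups and share their CTL, so the distances are a description. NRCAM was closest to the acetyltransferase gene KAT2B (0.37), ANXA9 (0.42) and the tight junction gene OCLN (0.50), where the median over all tested genes was 1.53. KAT2B stood at 2.47 in HSL119, 0.44 in KD1 and 0.46 in KD2. CACNA1D was closest to the phosphatase gene DUSP4 (0.34), the cytokine receptor gene IL20RB (0.56) and the spindle gene ASPM (0.56), with a median of 1.65. DUSP4 stood at 2.82, 1.39 and 0.69 in the 3 groups.

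CACNA2D3 was closest to the receptor gene NOTCH1 (0.27), the peroxidase gene GPX3 (0.30) and PHGDH (0.31), of serine synthesis, where the median was 0.79. NOTCH1 stood at -0.11, -0.50 and -0.81. EFNA5 was closest to the Notch coactivator gene MAML2 (0.34), the linker histone gene HIST1H1C (0.39) and the protease gene ADAM12 (0.39), with a median of 1.70. MAML2 stood at 1.51, 2.03 and 2.07. The nearest pair among the 4 genes themselves was NRCAM and CACNA1D, at 0.79, and the farthest CACNA2D3 and EFNA5, at 2.10.

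For cell identity, 5 epithelial and HER2-positive markers were read, ERBB2, GRB7, CDH1, KRT7 and MUC1, and all 5 exceeded the floor in every group. In single libraries 523 to 619 of the 758 panel genes did, so passing the floor says little about identity. Their summed linear value was 48823 to 51469 in CTL, 42006 to 45452 in HSL119, 43110 to 48579 in KD1 and 36198 to 44987 in KD2. The values of this paragraph are deposited linear values, without the division by a factor per library. Those factors were 0.88 to 0.91 in CTL, 0.90 to 0.96 in HSL119 and 1.04 to 1.13 in the lines. On scaled counts the lines thus stand lower against CTL than here. Of the 16 listed neuronal and neuroendocrine markers, 0 matched a panel gene by symbol, so neuronal identity could not be read here. Of 6 endothelial markers, 0 exceeded the floor in CTL, 2 in HSL119 and KD1, and 3 in KD2. Their sum moved with the knockdowns, from 60.9 to 96.7 in CTL to 104 to 285 in KD1 and 116 to 357 in KD2, and was 94.6 to 141 in HSL119. PECAM1 made up most of that difference, with a mean of 17.3 in CTL, 119 in KD1 and 128 in KD2. Among the 5 epithelial markers, mean linear values in HSL119 against CTL were 13088 against 4485 for ERBB2, 862 against 250.5 for MUC1 and 10109 against 6261 for CDH1. They went the other way for GRB7, at 15366 against 31789, and for KRT7, at 4025 against 7371. In KD1 and KD2 the means were 18730 and 16086 for GRB7, 6980 and 6563 for ERBB2, and 12985 and 12013 for KRT7. They were 6609 and 6687 for CDH1 and 226 and 216 for MUC1. GRB7 had the highest mean of the 5 in every group, so it weighs most in their sum. Of 7 leukocyte markers, 2 exceeded the floor in CTL and 5 in HSL119, and CD163 and GNLY stayed under it in all libraries. Their summed value was lower in HSL119, at 242 to 314 against 488 to 529 in CTL, with CD68 at a mean of 88.3 against 389.6. In the lines the sum was 363 to 514 in KD1 and 399.9 to 598 in KD2. The part of these markers in the results was not tested.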

How the data were processed

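Expression of a fixed panel of 758 genes was measured in 15 libraries of total RNA. The authors deposited normalized log2 counts and normalized linear counts (a signal never below 0) per gene, per the file headers; how they were normalized, and the counting tool, are not given in the sources used here. The deposited log2 values equalled log2 of the linear values plus a constant per library that differed between groups. In CTL, KD1 and KD2, whole counts were recovered from the linear values: 100% of values up to 1000 counts came out whole within 0.1. On those counts edgeR 4.0.16 called 278 genes in KD1 and 324 in KD2.

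Groups followed the sample titles. Differences came from limma 3.58.1 in R 4.3.3 on the deposited log2 values of all 15 libraries, with a variance trend and Benjamini-Hochberg adjustment over the 622 genes whose linear value exceeded 20 in at least 3 libraries; 136 were left out. The 5 scalings were deposited log2, log2 of the linear value plus 1, centred medians, quantile and median of ratios. The members and lists were chosen with earlier results of these data known. An item of the lists is not reported here, and list counts and medians are without it. Named genes were the members, the 3 genes nearest in pattern to each, and of each list those called, up to the 6 largest; CACNA2D1, CACNA1H, CACNG1 and CACNG6, outside that rule, were chosen after their values were seen. P-values measure only the spread between these libraries, which may be technical. Deviations from group means correlated at 0.59 to 0.76 between same-numbered libraries of KD1 and KD2. Between CTL and either line the correlations were -0.21 to -0.01. Differently numbered libraries were not compared, so pairing by number cannot be told apart from the shift of libraries 3 and 4 in both lines. The method was also run on simulated, independent libraries. These lacked the nearly equal pairs, the shift of libraries 3 and 4 and the constants per library. That run therefore cannot show how the call rule behaves under those features.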

Additional observations from a re-analysis of the deposited data

Results flagged for a closer look

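In groups of 4 libraries, 4 named genes had 1 library far from the other 3 on the deposited log2 values, measured as its gap to the nearest library over the range of the group. For independent libraries, chance alone marks about 1 in 20 groups this way. The named genes were checked in CTL, KD1 and KD2, so some marks arise by chance. The nearly equal pairs of libraries also break that independence. EFNA3, the other ephrin, was highest in KD1 library 1, with a gap of 0.868 of the range. PHGDH was lowest in KD1 library 3 (0.877), and GPX3 and MAML2 had such a library in KD2 (library 3, 0.847) and in KD1 (library 2, 0.858). On scaled counts these libraries stood less far from the others. PHGDH held 2070, 2121, 1905 and 1991 in KD1, and GPX3 2032, 2057, 1984 and 1919 in KD2. None of NRCAM, CACNA1D, CACNA2D3 and EFNA5 was marked in CTL, KD1 or KD2; HSL119, with 3 libraries, was not tested this way.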

How the results depend on the processing

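Of 152 alternatives run on the 12 differences of the 4 genes from CTL, apart from leaving out a library, 134 stayed within 1 SD, 15 moved further and 3 changed sign. Part of the 134 was fixed in advance. Centring, median of ratios and averaged pairs had to return the reported values once the median was subtracted. A second copy of the log2 values gave the same values, and the replicate block left KD1 and KD2 unchanged. Without subtracting the median of all genes, NRCAM stood at 3.50, 0.66 and 1.11 in HSL119, KD1 and KD2, CACNA2D3 at 0.31 (reversed), 0.24 (reversed) and -0.65, and EFNA5 at 1.89, 2.19 and 2.57. From libraries 1 and 2 alone, CACNA1D in KD2 was -0.067 (reversed), CACNA2D3 in KD2 -0.92 and EFNA5 in KD1 1.37. From libraries 3 and 4 alone these were 1.43, -1.22 and 2.17. Quantile normalization gave -0.33 and -1.28 for CACNA2D3 in KD1 and KD2, and 1.94 for EFNA5 in HSL119. The cause of these shifts was not tested.

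The rule that asks for all 5 scalings called 239, 50 and 69 genes in HSL119, KD1 and KD2. Single scalings called more. For HSL119 they gave 445 on deposited values, 419 on log2 of the linear value plus 1, 408 centred, 412 by quantiles and 421 by median of ratios. For KD1 these were 373, 298, 300, 274 and 287, and for KD2 386, 347, 332, 312 and 332. Higher against lower calls were 334 and 39 in KD1 on deposited values but 151 and 136 by median of ratios, 336 and 50 against 180 and 152 in KD2, and 300 and 145 against 206 and 215 in HSL119. edgeR on recovered counts, added after seeing the data, called 278 in KD1 and 324 in KD2.

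Leaving out 1 library gave 203 to 244 calls in HSL119, 15 to 59 in KD1 and 45 to 71 in KD2. Dropping HSL119 replicate 2 gave the 15 in KD1, dropping HSL119 replicate 3 gave 17 there, and the latter also gave the 45 in KD2. With the replicate block the counts were 239, 50 and 69, but the block entered only the fits of all libraries and not those with pairs averaged, and NRCAM, CACNA1D, CACNA2D3 and EFNA5 stood at 3.12, 2.74, -0.07 and 1.59 in HSL119. Low values limit CACNA1D most, whose CTL level lies near the floor.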
